A study of Saccharomyces cerevisiae with 12 samples.

Results

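The histone genes of budding yeast were described across a wild-type strain and 3 mutants of it during a maltose fermentation. The set comprised 10 genes, picked by their deposited systematic names. They encode the core histones, the histone variant H2A.Z or the linker histone H1. The choice was made by name, but with earlier results of these data known, out of 5769 genes measured on all arrays. Histone H3 is encoded by HHT1 (YBR010W) and HHT2 (YNL031C), histone H4 by HHF1 (YBR009C) and HHF2 (YNL030W), histone H2A by HTA1 (YDR225W) and HTA2 (YBL003C), and histone H2B by HTB1 (YDR224C) and HTB2 (YBL002W). HTZ1 (YOL012C) encodes H2A.Z and HHO1 (YPL127C) encodes H1. Each of the 10 genes had a value on every array, and none was removed by a filter.

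Core histones form the protein spool around which DNA is wrapped in a nucleosome, and the linker histone binds the DNA between nucleosomes. In budding yeast each core histone has 2 gene copies, and an H3 gene shares its promoter with an H4 gene, or an H2A gene with an H2B gene, the partners being transcribed away from each other. Their mRNAs, which carry poly(A) tails in yeast, accumulate while DNA is replicated and fall when replication stops or the cell cycle is left, whereas HTZ1 is much less tied to replication. The HIR complex represses most of these promoters outside replication, and SPT10 and SPT21 activate them.

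All strains had the background Saccharomyces cerevisiae Y55 (JT20150 [MAT-alpha MAL1 SUC1]), that is, mating type alpha with a maltose and a sucrose utilisation locus. The controls were wild type, and the other 3 groups were UV-induced mutants called fhf1, fhf2 and fhf3, whose labelled phenotype is fast fermentation of maltose. The sources used here do not say which genes UV hit or how many other changes each mutant carries. Each group had 3 cultures, each harvested on day 2 from a stirred, semi-aerobic fermentation of 200 mL rich medium with 20% maltose, held at 22 °C after inoculation to an OD600 of 0.2. Sampling on the same day means that strain and stage of fermentation cannot be told apart.

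Polyadenylated RNA was copied to cDNA and hybridised to 12 arrays in a single colour, each gene having 8 probes, and the authors deposited 1 column of log2 signal per culture. Probe sequences were not used here, so whether the probes of the highly similar gene copies cross-hybridise was not tested, and signals of different genes were not ranked against each other. Medians of the deposited arrays ran from 12.09 to 12.98 on the log2 scale, and each array was therefore shifted by the median of its differences from the gene means before the tests. Arrays of the same strain correlated at 0.964 or more across genes. The lowest value was between fhf1 replicates 1 and 3, and the lowest of wild type, 0.967, between replicates 1 and 2. Results were also computed without wild-type replicate 2 and fhf1 replicate 1, a choice made after seeing the data. These arrays had the highest and the lowest mean of the 8 core histone genes, so leaving them out is no independent check. The strain label was compared with mating-type markers. Of 6 a-cell markers, 5 fell in fhf3, beside 23.6% of all genes. MFA1 also fell in fhf1, by 0.82, and in fhf2, by 0.73. The log2 of the summed signal of all 6 was 12.42 to 12.69 in fhf3 against 13.67 to 13.83 in wild type, 13.21 to 13.58 in fhf1 and 13.32 to 13.50 in fhf2. Of 3 alpha-cell markers, 2 rose in fhf3, beside 21.8% of all genes. The log2 of the summed signal of all 3 was 15.19 to 15.40 in fhf3 against 14.67 to 15.01 in wild type, 14.67 to 15.14 in fhf1 and 15.07 to 15.25 in fhf2. No marker was listed at 0, and the arrays carry no background flag from which absence could be read. Their part in the histone results below was not tested.

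The first question was which histone genes differed between each faster-fermenting mutant and its parent. In fhf3, 3 of the 10 fell, namely HHT1, HHO1 and HTA2, by 1.79-fold, 1.65-fold and 1.44-fold, and 0 rose. In fhf1, 2 fell, namely HTB2 by 1.55-fold and HTA2 by 1.49-fold, and 0 rose. In fhf2 no histone gene passed the test. A call required a limma adjusted p (Benjamini-Hochberg over 5769 genes) under 0.05, and p-values measure the spread between these cultures. In cultures read in bulk, fewer cells replicating their DNA and less histone mRNA per cell cannot be told apart.

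These counts have to be read against the whole array. In fhf3, 45.4% of all genes were called, 23.6% as lower and 21.8% as higher, so 3 of 10 lower is close to the share of all genes and 3 of 10 called in all is below it. In fhf1, 16.7% of all genes were called, 11.2% as lower and 5.55% as higher. In fhf2, 6.45% were called, and the histone genes gave 0 calls with limma, and 0 at an unadjusted p under 0.05 against 18.8% of all genes. The median log2 change of the 10 genes was -0.25 in fhf1, -0.03 in fhf2 and -0.11 in fhf3, beside -0.003, 0.01 and 0.03 for all genes. In fhf1 all 10 histone genes had a value below 0, beside 50.5% of all genes, with 10 of 10 below 0 also on the deposited scale and 8 of 10 without fhf1 replicate 1. On the deposited scale the medians were -0.20 in fhf1, 0.07 in fhf2 and -0.43 in fhf3, with 1 of 10 below 0 in fhf2 and 10 of 10 in fhf3, beside medians of all genes of 0.05, 0.10 and -0.28. Without wild-type replicate 2 and fhf1 replicate 1, left out after seeing the data, 7 of 10 were below 0 in fhf1 and the median was -0.11.

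**Figure D1:**
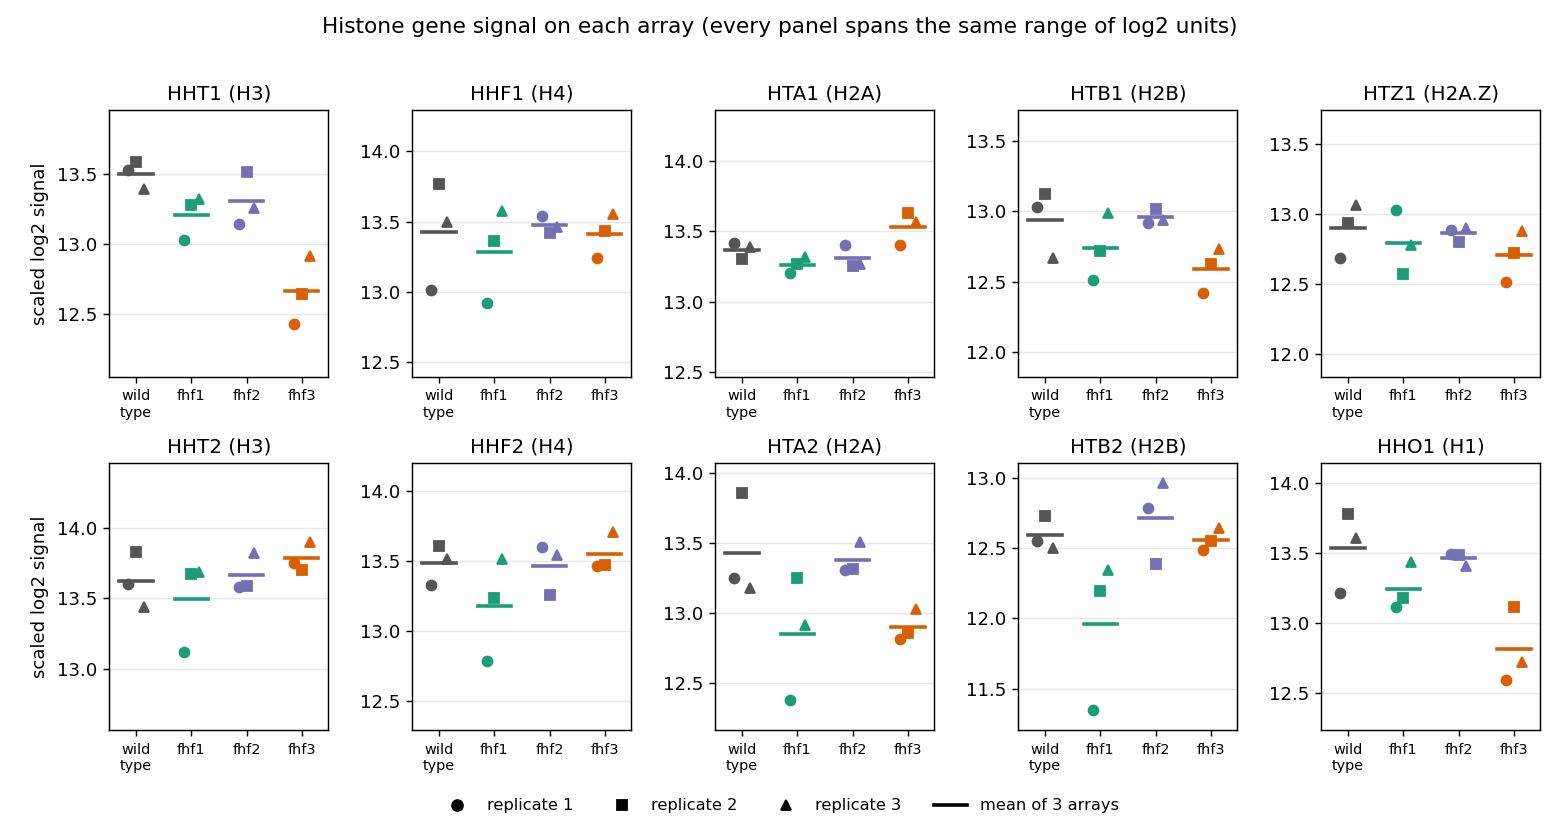
Scaled log2 signal (vertical axis) of each histone gene on each array, with points for the 3 cultures of a strain and bars for their mean. HHT1 and HHO1 lie lower on every fhf3 array than on any wild-type array, and HTB2 is lowest on fhf1 replicate 1, at 11.35.

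Among the H3 genes, HHT1 read 13.53, 13.58 and 13.39 in the wild-type cultures and 12.43, 12.65 and 12.92 in those of fhf3, as scaled log2 signal. Every fhf3 culture was lower than every wild-type culture, the means being 12.67 ± 0.24 and 13.50 ± 0.10 (SD, n = 3). The difference of -0.84 log2 units had a standard error of 0.14, a 95% confidence interval of -1.13 to -0.54 and a limma adjusted p of 0.000107. In fhf1 the cultures read 13.03, 13.28 and 13.32, again all lower than wild type, but the difference of -0.29 did not pass the test, with a limma adjusted p of 0.171 and an interval of -0.58 to 0.00. The fhf2 cultures read 13.14, 13.51 and 13.26 and overlapped with wild type. Groups with every culture lower, as for HHT1 in fhf1 and fhf3, were found for 2 histone genes in fhf1 and for 3 in fhf3, beside 16.3% and 26.3% of all genes.

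The other H3 gene, HHT2, differed from this pattern. Its wild-type cultures read 13.60, 13.83 and 13.44 and those of fhf3 13.75, 13.70 and 13.90, so the groups overlapped. The difference was 0.16 log2 units, with an interval of -0.16 to 0.48 and a limma adjusted p of 0.398. The fhf1 cultures read 13.12, 13.67 and 13.69, of which the first was low, and those of fhf2 read 13.58, 13.59 and 13.83. In neither did HHT2 pass the test. The sign of HHT2 in fhf3 depends on the scaling: on the deposited values the difference was -0.16, as the shift between the scales was 0.32 in that comparison.

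Neither H4 gene passed the test in any mutant. HHF1, the neighbour of HHT1, read 13.02, 13.77 and 13.50 in wild type, a spread that spanned the fhf3 values of 13.24, 13.43 and 13.55 and the fhf2 values of 13.54, 13.42 and 13.46. In fhf1 it read 12.92, 13.36 and 13.58. The interval of the HHF1 difference was -0.51 to 0.23 in fhf1 and -0.39 to 0.35 in fhf3, so a change of the size of that of HHT1 in fhf3 lay outside it there. HHF2, the neighbour of HHT2, read 13.33, 13.61 and 13.51 in wild type and 12.79, 13.24 and 13.51 in fhf1, a difference of -0.30 with an interval of -0.64 to 0.03 and a limma adjusted p of 0.214. It read 13.60, 13.26 and 13.54 in fhf2 and 13.47, 13.47 and 13.70 in fhf3, overlapping with wild type in both.

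Of the H2A genes, HTA2 was the only histone gene called in more than 1 mutant. Its wild-type cultures read 13.25, 13.85 and 13.18, and those of fhf1 read 12.38, 13.25 and 12.91. These groups overlapped, and the difference of -0.58 had a standard error of 0.19, an interval of -0.98 to -0.18 and a limma adjusted p of 0.0457. The fhf3 cultures read 12.82, 12.86 and 13.03, all lower than wild type, with a difference of -0.53, an interval of -0.93 to -0.12 and a limma adjusted p of 0.0328. The fhf2 cultures, at 13.31, 13.32 and 13.51, lay within the wild-type range. Both calls leaned on the high wild-type replicate 2: without it the differences were -0.37 in fhf1 (adjusted p = 0.213, limma) and -0.31 in fhf3 (adjusted p = 0.172, limma). The fhf1 call was also lost without fhf1 replicate 1, where the difference was -0.35 and the limma adjusted p 0.199, and at limma adjusted p-values of 0.0565 to 0.0616 without any 1 array of fhf2 or fhf3. The fhf3 call was lost without fhf3 replicate 1 or 2, with limma adjusted p-values of 0.0965 and 0.0866.

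HTA1, the other H2A gene, had the smallest standard error of the 10, at 0.11. It read 13.42, 13.30 and 13.39 in wild type, 13.20, 13.27 and 13.31 in fhf1, 13.41, 13.26 and 13.27 in fhf2 and 13.40, 13.63 and 13.57 in fhf3. It passed the test against wild type in no mutant. In fhf3 its difference of 0.16 had an interval of -0.06 to 0.39, a limma adjusted p of 0.228, and turned to -0.16 on the deposited values.

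For H2B, HTB2 read 12.55, 12.73 and 12.50 in wild type and 11.35, 12.19 and 12.35 in fhf1. All fhf1 cultures were lower, replicate 1 by far the most. The difference of -0.63 had a standard error of 0.20, an interval of -1.06 to -0.21 and a limma adjusted p of 0.0366. Without fhf1 replicate 1 it was -0.33 with a limma adjusted p of 0.169, so that culture carried the call. The call was also lost without wild-type replicate 1, 2 or 3 and without fhf3 replicate 2, with limma adjusted p-values of 0.0678, 0.103, 0.0694 and 0.0509. HTB2 in fhf2, at 12.79, 12.38 and 12.96, and in fhf3, at 12.48, 12.55 and 12.64, overlapped with wild type.

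HTB1, the other H2B gene, read 13.03, 13.13 and 12.67 in wild type and 12.42, 12.63 and 12.73 in fhf3. The groups overlapped, and the difference of -0.35, with an interval of -0.65 to -0.05, missed the threshold after adjustment (limma, adjusted p = 0.0557). It passed under 6 alternatives, with limma adjusted p-values of 0.0162 to 0.0496. These were the filter on dim genes, the replicate block, and leaving out fhf1 replicate 1 or 3, fhf3 replicate 3 or wild-type replicate 3, the last giving -0.49. In fhf1 it read 12.51, 12.72 and 12.99, and in fhf2 12.92, 13.02 and 12.94, with differences of -0.20 and 0.02.

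The linker histone gene HHO1 fell in fhf3 alongside HHT1. It read 13.21, 13.78 and 13.61 in wild type and 12.60, 13.12 and 12.73 in fhf3. All fhf3 cultures were lower, and the difference of -0.72 had a standard error of 0.15, an interval of -1.05 to -0.40 and a limma adjusted p of 0.00106. In fhf1 it read 13.12, 13.18 and 13.43, a difference of -0.29 that did not pass the test (limma, adjusted p = 0.222), and in fhf2 it read 13.49, 13.49 and 13.41. HTZ1, whose product replaces H2A in nucleosomes next to promoters, passed the test in no mutant. It read 12.69, 12.94 and 13.07 in wild type, 13.03, 12.57 and 12.78 in fhf1, 12.88, 12.80 and 12.90 in fhf2 and 12.52, 12.73 and 12.88 in fhf3, with overlapping groups throughout. Its difference in fhf3 was -0.19, with an interval of -0.48 to 0.10.

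**Figure D2:**
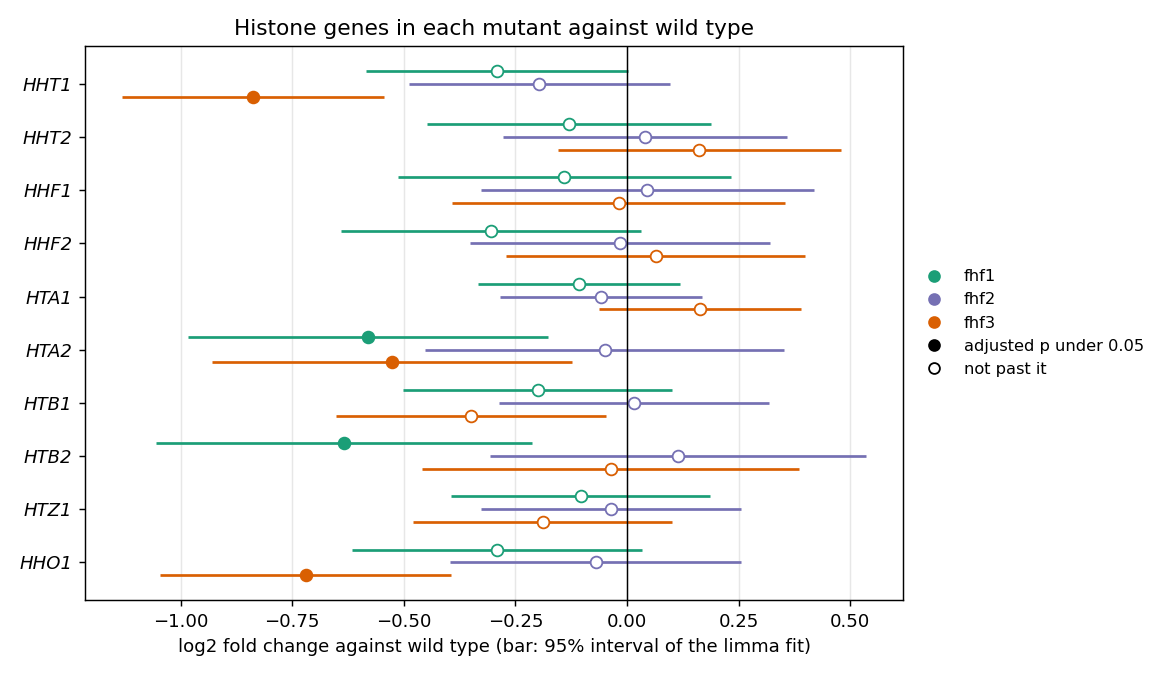
Log2 fold change against wild type (horizontal axis) of each histone gene in fhf1, fhf2 and fhf3, with 95% confidence intervals from the limma fit. HHT1 at -0.84 and HHO1 at -0.72 in fhf3 are the calls whose intervals lie farthest below 0, and all 10 intervals of fhf2 include 0.

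The calls differed in how far they depended on processing. HHT1 and HHO1 in fhf3 passed the test under each of 20 alternatives, with differences of -1.16 to -0.72 and of -1.04 to -0.60. HTA2 passed in 16 of 20 alternatives in fhf3 and in 9 of 20 in fhf1, and HTB2 in fhf1 in 11 of 20. None passed a limma test against a change of 2-fold. With wild-type replicate 2 and fhf1 replicate 1 left out, HTA2 and HTB2 in fhf1 were at -0.13 and -0.26, with limma adjusted p-values of 0.581 and 0.297. The authors' deposited table tests each gene against a change of 2-fold, and its adjusted p was 1 for every histone gene in each mutant.

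**Figure D3:**
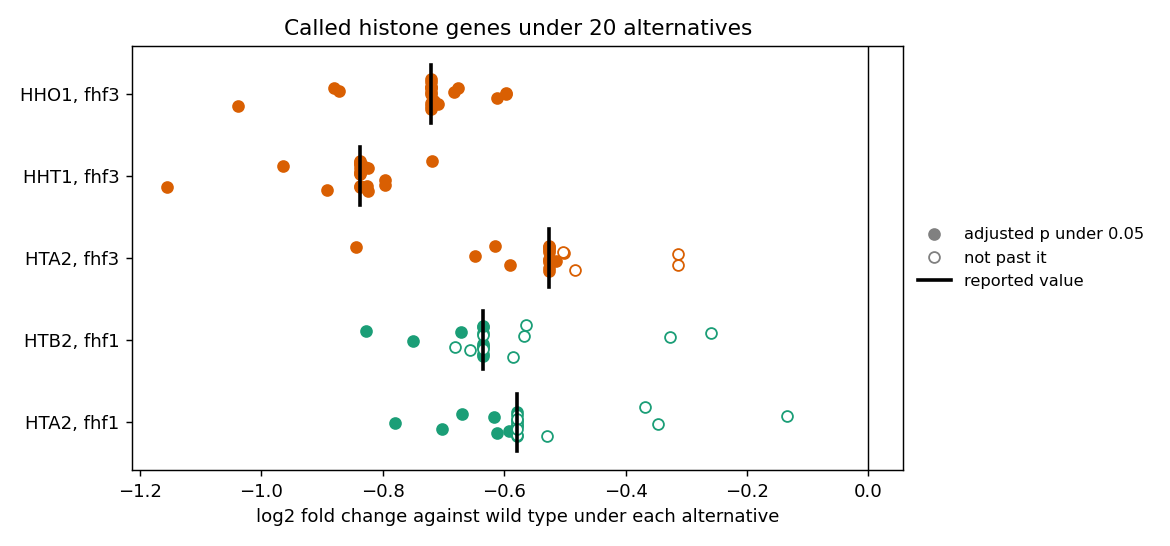
Log2 fold change against wild type (horizontal axis) of the 5 called gene and mutant combinations (rows) under 20 processing alternatives, filled where the call was kept. HHT1 and HHO1 in fhf3 kept the call in 20 of 20, and HTA2 in fhf1 kept it in 9 of 20.

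The second question was whether the 2 copies of a histone gene moved together. For this, the log2 signal of one copy was subtracted from that of the other on the same array, which removes any shift of the whole array. The difference between strains was then tested by an exact permutation test of the F ratio over all 15400 assignments of the arrays to the strains, adjusted over 4 pairs. Such a difference shows an unequal change and not which copy has more mRNA.

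The H3 copies differed in their response. HHT1 minus HHT2 was -0.12 ± 0.11 in wild type, -0.28 ± 0.17 in fhf1, -0.36 ± 0.25 in fhf2 and -1.12 ± 0.18 in fhf3 (log2 units, SD, n = 3). The fhf3 arrays, at -1.33, -1.06 and -0.99, were all below the wild-type range of -0.25 to -0.05. Unequal change between 2 genes was common: of 1302 pairs of neighbouring genes transcribed away from each other, 47.2% lay wholly above or below wild type in fhf3. In fhf1 the share was 26.9%, and a limma F test over the 4 strains called 53.8% of all single genes. The permutation test was not run on pairs other than the histone copies, so no share stands beside its p-values. The exact permutation p was 0.00519, and 0.0208 after adjustment over the 4 pairs. Relative to wild type, HHT1 lost 2.00-fold against HHT2 in fhf3, the largest copy difference of the 4 pairs in any mutant. Leaving out any 1 array kept the adjusted p between 0.00545 and 0.0418 in this exact permutation test, but with the replicate number as a block the adjusted p was 0.0903 and the call was lost.

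The other copy pairs did not pass the test after adjustment. HHF1 minus HHF2, the H4 copies, stayed between -0.14 ± 0.10 in fhf3 and 0.11 ± 0.04 in fhf1 (SD, n = 3; exact permutation p = 0.284), each mutant overlapping with wild type. HTA1 minus HTA2, the H2A copies, was -0.06 ± 0.43 in wild type, 0.41 ± 0.40 in fhf1, -0.07 ± 0.17 in fhf2 and 0.63 ± 0.12 in fhf3 (SD, n = 3). All fhf3 arrays were above wild type, but the wild-type arrays themselves ran from -0.55 to 0.21, and the exact permutation p was 0.0655, adjusted 0.0874. Without wild-type replicate 2 and fhf1 replicate 1 this p was 0.0108, adjusted 0.0216. Those arrays were left out after seeing the data and held the lowest wild-type value, -0.55, and the highest fhf1 value, 0.82. Their removal narrows the spread within strains, so the smaller p is no support for a copy difference. HTB1 minus HTB2, the H2B copies, was 0.35 ± 0.16 in wild type, 0.78 ± 0.34 in fhf1, 0.25 ± 0.34 in fhf2 and 0.03 ± 0.09 in fhf3 (SD, n = 3). The fhf1 arrays were all above and the fhf3 arrays all below wild type, with an exact permutation p of 0.0335, adjusted 0.0670. Leaving out single arrays moved that p between 0.00442 and 0.124, also by exact permutation. Strains were not tested pair by pair, since 3 arrays against 3 cannot give an exact p below 0.10.

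**Figure D4:**
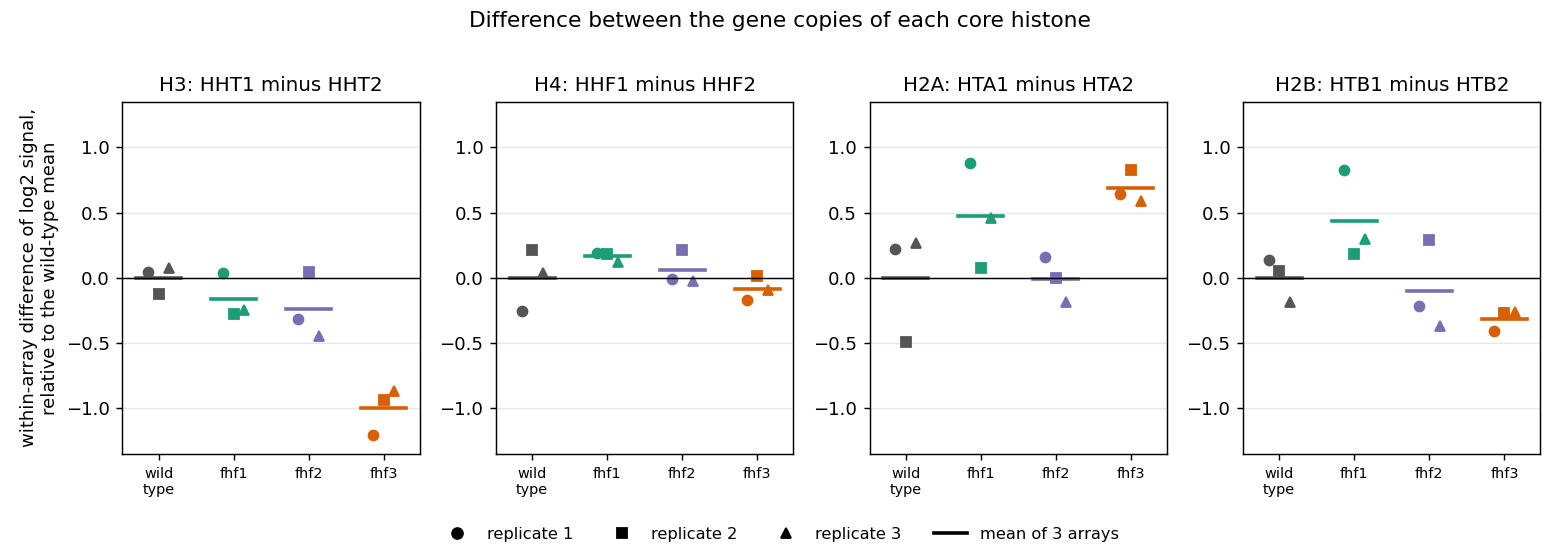
Within-array log2 difference between the copies of each core histone, drawn relative to its wild-type mean (vertical axis), with a point per array and a bar per strain mean. The H3 copies stand 1.00 log2 units below wild type in fhf3, and the H4 copies of each mutant overlap with wild type.

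Copies of a histone lie at different loci, while each gene has a partner of another histone next to it. In the R64 annotation the pairs HHT1 and HHF1, HHT2 and HHF2, HTA1 and HTB1, and HTA2 and HTB2 are neighbours with 0 genes between them, transcribed away from each other. In fhf3 the difference between partners lay apart from wild type at 3 of the 4 loci, beside 47.2% of all 1302 divergent neighbour pairs measured, as a description without a test. In fhf1 and fhf2 it did so at 0 of the 4, beside 26.9% and 24.6%. HHT1 minus HHF1 was 0.82 log2 units lower in fhf3 than in wild type, by the means of -0.74 ± 0.09 and 0.08 ± 0.38 (SD, n = 3), and every fhf3 array was below every wild-type array. HTA1 minus HTB1 was 0.51 higher and all fhf3 arrays were above wild type. HTA2 minus HTB2 fell by 0.49 and all fhf3 arrays were below wild type. HHT2 minus HHF2 was 0.10 higher and overlapped. In fhf1, HTA2 minus HTB2 was 0.05 higher, with overlapping arrays, while both genes were lower by similar amounts.

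Over the 12 arrays, Pearson correlations of scaled signal were given as a description, since arrays share strain, culture and scaling. The partners HHT2 and HHF2 correlated at 0.81 and HTA2 and HTB2 at 0.73, with 0.77 and 0.74 within strains. HHT1 and HHF1 correlated at 0.21 and HTA1 and HTB1 at -0.24, with 0.44 and 0.29 within strains. Among copies, HHF1 and HHF2 correlated at 0.79 and HTB1 and HTB2 at 0.47, with 0.84 and 0.57 within strains. HHT1 and HHT2 were at -0.10 over all arrays but at 0.55 within strains, and HTA1 and HTA2 at -0.13 and -0.03. Pairs that were neither partners nor copies ran from -0.52, for HHT1 and HTA1, to 0.90, for HHF2 and HTB2. Within strains these pairs were at 0.19 and 0.91, so a high value was not particular to partners or copies. Against the mean of the 8 core genes, in which each also takes part, HTA2 was at 0.90 and HTB2 at 0.88, but HHT1 at 0.48 and HTA1 at 0.17. HHO1 and HTZ1, which are outside that mean, were at 0.51 and 0.06.

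Strains were also compared with one another. A limma F test over the 4 strains called HHT1 (adjusted p = 0.000440), HHO1 (0.00286), HTB2 (0.0161) and HTA2 (0.0224), 4 of 10 beside 53.8% of all genes. Between fhf3 and fhf1, 4 of 10 were called beside 49% of all genes. HHT1 and HHO1 were lower in fhf3, beside 25.3% of all genes, and HTB2 and HTA1 higher, beside 23.7%. HTA1 turned to lower on the deposited values. HHF2 missed the threshold in this pair, at 0.37 with a limma adjusted p of 0.0632. It passed with the replicate block, without fhf1 replicate 3 and when scaled on genes of similar signal, with limma adjusted p-values of 0.0366, 0.00798 and 0.0424. Between fhf3 and fhf2, HHT1, HTB1 and HHO1 were lower in fhf3, 3 of 10 beside 46.2% called and 24.2% called as lower. HTA2 missed the threshold there, at -0.48 with a limma adjusted p of 0.0503, and passed it under 10 alternatives, with limma adjusted p-values of 0.00103 to 0.0449. Between fhf1 and fhf2, limma called 0 of 10 beside 1.77%, and 2 had an unadjusted p under 0.05, beside 14.2%: HTB2, at -0.75 with an adjusted p of 0.0709, and HTA2, at -0.53 with an adjusted p of 0.198. For HHT1 and HHO1 the order from the highest mean was therefore wild type, fhf2, fhf1 and fhf3, of which only the step down to fhf3 was past the test between neighbours.

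By the mean of the 8 core genes, each centred on its own mean over 12 arrays, the lowest array was fhf1 replicate 1 at -0.51 and the highest wild-type replicate 2 at 0.30. The others lay between -0.17 and 0.17. The 5 genes outside the set whose signal followed this mean most closely were POL30 at a Pearson r of 0.91, YLR036C at 0.90, TOS6 and PMP2 at 0.89 and SPC19 at 0.88, each over 12 arrays. POL30 encodes the sliding clamp that holds DNA polymerase on its template, and SPC19 a subunit of the kinetochore complex that grips microtubules. Without fhf1 replicate 1, over 11 arrays, these values were 0.86, 0.69, 0.87, 0.64 and 0.85. Wild-type replicate 2, also the highest array for POL30, TOS6, PMP2 and SPC19, stayed among the 11. Against wild type, POL30 passed the test in no mutant, with -0.52 in fhf1 (limma, adjusted p = 0.0970) and -0.30 in fhf3. TOS6 fell in fhf1 and fhf3, with changes of -1.33 and -1.23, as did SPC19, with -0.60 and -0.36.

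**Figure D5:**
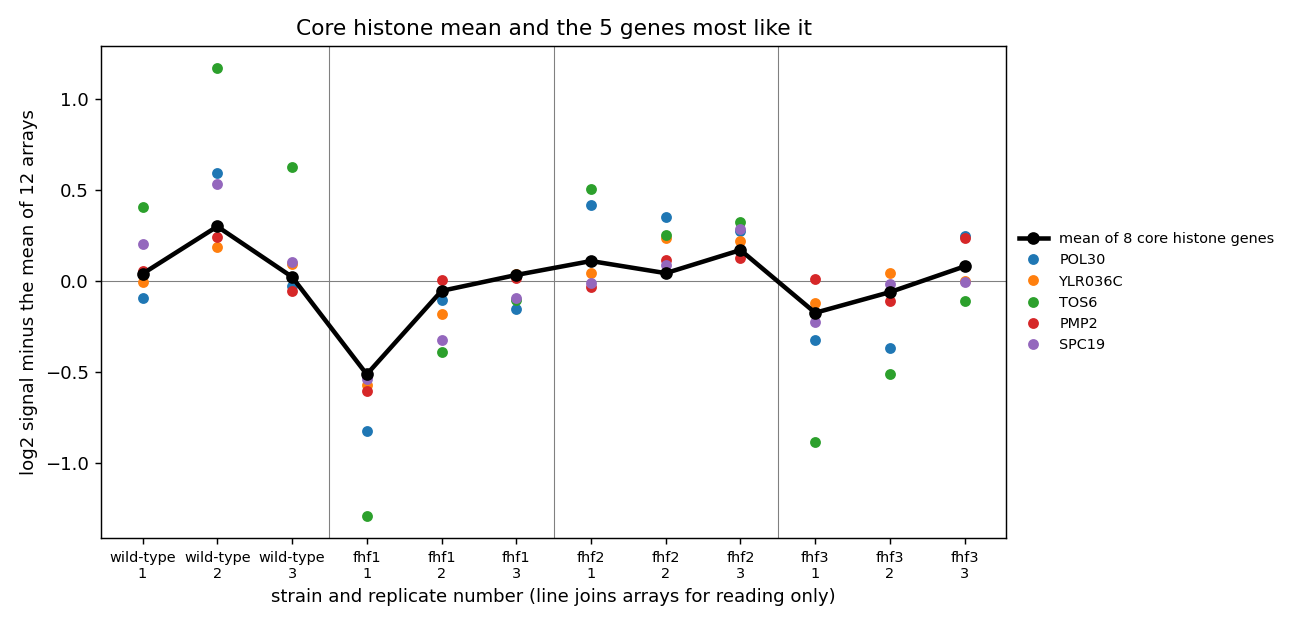
Log2 signal minus each gene's mean over 12 arrays (vertical axis) for the core histone mean and the 5 genes most like it, by array. The core mean is lowest on fhf1 replicate 1, at -0.51, and highest on wild-type replicate 2, at 0.30.

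Genes that act on the histone genes or their products were counted from lists. Of all genes, 5.55% rose and 11.2% fell in fhf1, 6.45% were called in fhf2, and 21.8% rose and 23.6% fell in fhf3. Of 15 regulators of histone gene expression, 1 rose and 1 fell in fhf1, 1 rose and 1 fell in fhf2, and 1 rose and 2 fell in fhf3, with median log2 changes of 0.03, -0.04 and -0.03. The HIR complex genes HIR1, HIR2, HIR3 and HPC2 and the activator gene SPT10 passed the test in no mutant. SPT21, which works with SPT10, rose by 0.46 in fhf1 and 0.50 in fhf2 and was at 0.09 in fhf3. SWI4, encoding the DNA-binding subunit of a factor that starts the transcription of late G1 genes, fell by 0.37 in fhf3. RAD53, a checkpoint kinase that also targets surplus histone protein for degradation, fell in each mutant, its change being -0.73 in fhf1, -0.63 in fhf2 and, lowest, -0.89 in fhf3. TRF5, a poly(A) polymerase of nuclear RNA decay, rose by 0.71 in fhf3.

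Of 37 DNA replication genes, 3 rose and 6 fell in fhf1, 0 passed the limma test in fhf2, where 3 had an unadjusted p under 0.05, and 8 rose and 3 fell in fhf3, with medians of -0.16, 0.14 and 0.06. DPB2, a subunit of DNA polymerase epsilon, rose by 1.06 and POL32, a subunit of polymerase delta, by 0.82 in fhf3. RFC5, a subunit of the clamp loader, fell by 0.77 in fhf1, where SLD5, of the GINS complex at the replication fork, rose by 0.74. The replication genes therefore did not all move one way in fhf1 or fhf3.

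Of 19 histone chaperone and assembly genes, 2 fell in fhf1, 0 passed the limma test in fhf2 (2 at an unadjusted p under 0.05), and 1 rose and 2 fell in fhf3, with medians of 0.02, 0.03 and 0.09. In fhf3 HAT2, a subunit of a histone acetyltransferase that acts on new H4, fell by 0.65, RLF2, the large subunit of the replication-coupled assembly factor CAF-1, fell by 0.48, and FPR4, a histone chaperone and proline isomerase, rose by 0.65. RTT109, the acetyltransferase of new H3, fell by 0.63 in fhf1. Of 15 genes for exchange of H2A.Z, 1 fell in fhf1, 0 passed the limma test in fhf2 (1 at an unadjusted p under 0.05), and 4 rose and 1 fell in fhf3, near the share of all genes for the rise. Among them YAF9 and VPS71, of the complex that installs H2A.Z, rose by 0.70 and 0.53 in fhf3 and RVB1, a helicase of the same complex, by 0.37, while SWC7, another of its subunits, fell by 0.59 in fhf1. HTZ1 itself, their substrate, passed the test in no mutant, as given above.

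Of 32 measured histone-modifying enzymes, 4 fell in fhf1, 2 fell in fhf2, and 6 rose and 11 fell in fhf3, with medians of 0.01, 0.02 and -0.10. In fhf3 that is near the share of all genes for the rise and above it for the fall, which was not tested for the list. HST3 encodes a deacetylase that removes the mark RTT109 places on new H3, and it fell in each mutant, to the smallest extent in fhf2 at -0.91, then -1.09 in fhf1 and -1.45 in fhf3. Its relative HST4 rose by 1.02 in fhf3, so the related pair moved in opposite directions there. RPH1 and GIS1, related genes for histone demethylase family proteins, fell in fhf3, with changes of -0.92 and -0.90. Of 8 genes of centromeric and silencing chromatin, 1 fell in fhf1, 0 passed the limma test in fhf2 (2 at an unadjusted p under 0.05) and 2 fell in fhf3. These were SIR3, a nucleosome-binding silencing protein that fell in fhf1 and fhf3, with changes of -0.68 and -0.76, and SIR1, which fell by 0.37 in fhf3. On the deposited scale, on which differences in fhf3 are lower by 0.32, the sign turned for 0 of the 22 genes named as called from these lists. This covers only the sign, in 1 comparison per gene. Rises such as that of RVB1, by 0.37, are close to the size of the shift. Calls of the lists were not counted on that scale, where 7.97% of all calls in fhf3 were rises, against 48% on the scaled values.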

How the data were processed

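Per the labels' protocols, oligo(dT)-primed cDNA carrying the dye Cy3 was put on NimbleGen arrays designed for yeast. The labels mention hybridisation in triplicate, and whether repeats were averaged into the deposited values is not settled. How probes were combined into a gene value, and any normalization, is not given in the sources used here, and the submitters' processing notes name limma. The authors deposited log2 signal per gene and array, and a table of log2 fold changes, p-values, adjusted p-values and t scores. The deposited log2 fold changes equal the differences of group means of the deposited log2 signal within 5e-08.

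Of 5872 genes with array rows, 5769 had values on all 12 arrays. Each array was scaled by the median of its differences from the gene means, which subtracted between -0.392 and 0.411. limma 3.58.1 in R 4.3.3 (lmFit, eBayes) was fitted to 4 groups of 3 with 17.4 total degrees of freedom, two-sided, with Benjamini-Hochberg adjustment over all genes. Arrays give no depth, and their number limits the precision. Copy differences were tested by exact permutation. Alternatives were values as deposited, quantile normalization, a filter on the dimmest 25% of genes, a variance trend, the replicate number as a block, leaving out each array, only the compared groups, and a test against 2-fold. Scaling on genes of similar signal and leaving out wild-type replicate 2 with fhf1 replicate 1 were chosen after seeing the data.

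The members and all gene lists were chosen with earlier results of these data known. Named genes are the 10 histone genes, up to 4 called genes per list with the largest change, and the 5 most like the core mean. The genes HIR1, HIR2, HIR3, HPC2 and SPT10 are outside that rule and were named after their values were seen. Gene order comes from the R64 annotation, and no coordinates are given, since the array's build is not named in the sources used here.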

Additional observations from a re-analysis of the deposited data

Results flagged for a closer look

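The difference between mutants, tested directly in the limma fit, was past the threshold for 7 combinations of a histone gene and a pair of mutants. These were 4 of 10 genes in fhf3 against fhf1, beside 49% of all genes, and 3 of 10 in fhf3 against fhf2, beside 46.2%. Both counts are below the share of all genes. In fhf3 against fhf1, HHT1 differed by -0.55 log2 units (adjusted p = 0.00368) and HHO1 by -0.43 (adjusted p = 0.0290), and in both genes all 3 fhf3 cultures were lower. In the same pair HTB2 differed by 0.60 (adjusted p = 0.0201) and HTA1 by 0.27 (adjusted p = 0.0460), with all 3 fhf3 cultures higher. In fhf3 against fhf2, HHT1 differed by -0.64 (adjusted p = 0.00114), HHO1 by -0.65 (adjusted p = 0.00234) and HTB1 by -0.37 (adjusted p = 0.0453), with all 3 fhf3 cultures lower. HHT1 against both mutants and HHO1 against fhf2 kept the call in 20 of 20 alternatives. HHO1 against fhf1 kept it in 16 and lost it without fhf1 replicate 3, fhf3 replicate 1 or fhf3 replicate 3, with limma adjusted p-values of 0.102, 0.135 and 0.0897. HTB2 against fhf1 also kept it in 16. Without fhf1 replicate 1 that difference was 0.29 (limma, adjusted p = 0.129), and without fhf3 replicate 3 it was 0.56 (limma, adjusted p = 0.0652). HTB1 against fhf2 kept the call in 12 and lost it without fhf1 replicate 2, fhf2 replicate 1, 2 or 3, or fhf3 replicate 1 or 2, the highest limma adjusted p being 0.179 without fhf3 replicate 1. HTA1 against fhf1 kept it in 7, lost it without any 1 array of fhf1 or fhf2 and without fhf3 replicate 2 or 3 or wild-type replicate 3, with limma adjusted p-values up to 0.147, and had a difference of -0.10 on the deposited values.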

How the results depend on the processing

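For histone genes that fell in fhf1 against wild type, the count of 2 became 0 with values as deposited, with only the compared groups, without wild-type replicate 2 and fhf1 replicate 1, in a test against 2-fold and in the authors' deposited table, and 1 with quantile normalization. Leaving out 1 array gave 0 to 3, with 0 without fhf1 replicate 1, wild-type replicate 2 or fhf3 replicate 2. For fhf3 against wild type the count of 3 became 0 in the test against 2-fold and in the deposited table. It became 4 with the dim-gene filter or the replicate block, 2 without both arrays, and 2 to 4 on leaving out 1 array. Between fhf3 and fhf1, 2 higher became 0 with values as deposited, against 2-fold and without both arrays. That count became 1 with only the compared groups, 3 when scaled on genes of similar signal and 0 to 2 on leaving out 1 array. The 2 lower became 0 against 2-fold, 1 when scaled on genes of similar signal and 1 to 2 on leaving out 1 array. HTA1 there reversed to -0.10 with values as deposited (limma, adjusted p = 0.797). Between fhf3 and fhf2, 3 lower became 0 against 2-fold, 2 with quantile normalization or scaling on genes of similar signal, 4 with values as deposited, the dim-gene filter, the variance trend, the replicate block, only the compared groups or without both arrays, and 2 to 4 on leaving out 1 array. Between fhf1 and fhf2, 0 became 1 with the replicate block and 0 to 1 on leaving out 1 array.

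With the replicate block the H3 copy difference had an exact permutation p of 0.0260 (adjusted 0.0903, 576 assignments), and 0.00136 to 0.0105 on leaving out 1 array. Without wild-type replicate 2 and fhf1 replicate 1, left out after seeing the data, the H2A copy difference had 0.0108. On leaving out 1 array it had 0.0315 to 0.150, and the H2B copy difference 0.00442 to 0.124, also by exact permutation. Their adjusted p was 0.0492 each without fhf1 replicate 2, and that of H2B 0.00883 without fhf2 replicate 2, by the same exact test. The replicate numbers come from the sample titles, and whether they mark a shared batch was not tested. Deviations of same-numbered arrays correlated at -0.24 to 0.45, over 0.1 in 10 of 18 pairs, and 5 of 12 arrays correlated best with their own number. For number 1 the values ran from 0.14, between fhf2 and fhf3, to 0.45, between fhf1 and wild type.

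Over all genes, calls in fhf1, fhf2 and fhf3 against wild type were 965, 372 and 2617, but 154, 59 and 1431 with values as deposited, 21, 21 and 192 against 2-fold, and 11, 9 and 170 in the deposited table. For fhf1 they were 516 with only the compared groups. Between fhf1 and fhf2, 102 became 18 with values as deposited, 0 against 2-fold and 175 with the replicate block. Against 2-fold, fhf3 differed from fhf1 in 157 genes and from fhf2 in 111. Of the calls, the share that rose was 33.2%, 25% and 48% in fhf1, fhf2 and fhf3, but 22.1%, 22% and 7.97% with values as deposited and 46.5%, 34.8% and 56.4% with quantile normalization. The cause of these changes was not tested. Over single genes and all alternatives, 1197 results kept their side of the threshold, of which 68, none of them called, turned sign. A further 69 lost the call, 23 gained it, and 1 called result reversed.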
